A study of Mus musculus with 2 samples.

Results

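The cells described here were CD8 T cells of mouse lymph nodes that carried transcripts of Ccl5, the chemokine CCL5 (RANTES), which memory and effector T cells make. They were chosen by raw counts of unique molecular identifiers (UMIs), each of which stands for 1 captured transcript molecule. A cell had to hold at least 500 UMIs and 200 genes, at most 10% mitochondrial UMIs, at least 2 UMIs of the CD3 chains Cd3d, Cd3e and Cd3g together, and at least 1 UMI each of Cd8b1 and Ccl5. It was left out with any UMI of Cd4, of the γδ receptor chain Trdc or of the B cell genes Cd79a and Ms4a1, or with 3 or more UMIs of the stimulation genes Nr4a1, Nr4a3, Tnfrsf9 and Egr2 together. This rule kept 529 of 25779 cells (2.05%), of which 471 came from the wild-type library and 58 from the knockout library.

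The study set immune cells from wild-type lymph nodes (WT) against cells from RPA1 conditional knockout animals (CKO), to ask what RPA1 does in T cells. The RPA1 protein is the large subunit of the complex that protects single-stranded DNA while it is copied or repaired. Both libraries came from the C57BL/6 strain and were made with a droplet kit that reads transcript 3′ ends. Each genotype had 1 library, and the labels give no Cre driver, age, treatment or number of mice. No difference between the genotypes could therefore be set against variation between animals, and no test was made. Ranges in brackets are exact 95% intervals unless named otherwise, and these hold only the error of counting molecules.

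Memory CD8 T cells are the long-lived cells that answer an antigen met before. They make cytokines and kill infected cells faster than naive cells, and the shared interleukin-2 and interleukin-15 receptor chain on their surface ties their upkeep to interleukin-15. In unimmunised mice many memory-phenotype CD8 T cells, often called virtual memory cells, acquire this state from cytokines and self-recognition without a foreign antigen. Central memory cells recirculate through lymph nodes, whereas effector cells gain granzymes and receptors for inflamed tissue.

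The WT library held 12769 barcodes and 84813609 UMIs, and the CKO library 13754 barcodes and 76200586 UMIs. After the filters on UMIs, genes and mitochondrial share, 12463 WT and 13316 CKO cells were kept. The CD8 T cells with Ccl5 were deep in both libraries, with a median of 9103 UMIs per cell in WT (range 1040 to 39658) and 9607.5 in CKO (range 1603 to 20393). Their summed counts came to 4521594 UMIs in WT and 540413 in CKO. A gene at 0 could thus lie below 3 counts, which on the counts-per-million scale (CPM, UMIs of a gene scaled by the summed UMIs of these cells) is 0.663 in WT but 5.55 in CKO. The libraries shared 56 barcode sequences, and none of these marked a CD8 T cell with Ccl5 in both. The steps that leave cells out took a larger part of the CKO cells. The step that removed cells with Cd4 left 3446 of 4063 WT cells and 1053 of 1516 CKO cells. The step on Trdc then left 3357 and 699 cells, and that on the B cell genes 2964 and 460.

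CD8 T cells with Ccl5 made up 3.78% of kept cells in WT (interval 3.45 to 4.13%) and 0.436% in CKO (0.331 to 0.563%), a share 8.68 times as high in WT. Within the CD8 gate, which is the same rule without Ccl5, the libraries were much closer. There Ccl5 was found in 471 of 2921 WT cells (16.1%, 14.8 to 17.5%) and in 58 of 448 CKO cells (12.9%, 9.98 to 16.4%). The whole CD8 gate took 23.4% of kept cells in WT and 3.36% in CKO. Of cells with the CD3 and Cd8b1 UMIs of the rule, it kept 2921 of 4063 in WT and 448 of 1516 in CKO. How far these exclusions shaped the shares of kept cells was not tested. A Ccl5 UMI was also found in 2.07% of WT and 2.86% of CKO B cells, at median depths of 4054.5 and 3944 UMIs, and in 3.06% and 3.24% of CD4 T cells, at 6048 and 5725 UMIs. These cells should mostly lack the gene, so the CD8 shares lay above the level that free RNA gives. When Ccl5 was counted after thinning each cell to 2000 UMIs, the share was 10.3% in WT (3 shallower cells left out) and 10.1% in CKO (2 left out). When the whole gate was applied to thinned cells, it was 10.0% in WT and 14.5% in CKO, so the order of the libraries depended on how Ccl5 and the gate were counted. Thinning also removes UMIs of the genes that exclude cells. The thinned gate held 2739 cells in WT, fewer than the 2921 before, but 516 in CKO, more than the 448 before. It can thus admit cells that the rule leaves out, and its share is not one of the same cells at equal depth.

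The amount of Ccl5 per cell had a different shape in the libraries. In WT, 140 cells (29.7%) held 1 UMI of Ccl5, 164 cells (34.8%) held 2 to 9, and 167 cells (35.5%, 31.1 to 40.0%) held 10 or more. In CKO, 14 cells (24.1%) held 1 UMI, 3 cells (5.17%) held 2 to 9, and 41 cells (70.7%, 57.3 to 81.9%) held 10 or more. The median was 4 UMIs in WT, with a highest cell at 405, and 22 UMIs in CKO, with a highest cell at 303. The middle range, well filled in WT, was nearly empty in CKO. Since the rule requires Ccl5, these values describe the chosen cells and test nothing. As a share of the CD8 gate, cells with 10 or more Ccl5 UMIs were 5.72% in WT (4.90 to 6.62%) and 9.15% in CKO (6.65 to 12.2%). That order was opposite to the one at 1 UMI.

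**Figure D1:**
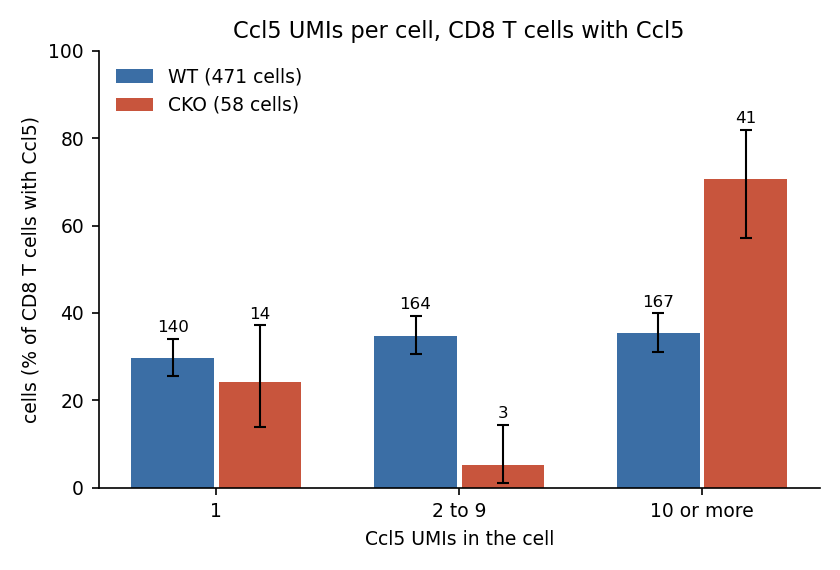
Share of CD8 T cells with Ccl5 (y axis, percent of each library's cells) by the number of Ccl5 UMIs in the cell (x axis), with WT in blue and CKO in red, exact 95% binomial intervals as black bars and the number of cells above each bar. Cells with 10 or more UMIs were 35.5% in WT and 70.7% in CKO, and the 2 to 9 range held 164 WT cells but 3 CKO cells.

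The markers given with the label of memory-like cells were common in cells with much Ccl5 and less so in those just inside the threshold. The cells were chosen with earlier results of these data known, so these markers do not check the label. Of the markers given for these cells, Gzmm, a granzyme, was found in 42.5% of WT and 39.0% of CKO cells with 10 or more Ccl5 UMIs. The chemokine receptor Cxcr3 was found in 58.7% and 65.9% of them, the protease inhibitor-like Ctla2a in 82.0% and 82.9%, and Samd3 in 43.7% and 46.3%. Of other genes of memory CD8 T cells, Il2rb was found in 85.6% and 82.9% of the same cells and Eomes in 53.3% and 63.4%. Nkg7 was found in 99.4% and 100%, Klrd1 in 81.4% and 56.1%, but Cd44 in only 37.7% and 34.1%. Among cells with exactly 1 Ccl5 UMI, Gzmm was in 6.43% of WT and 7.14% of CKO cells, and Ctla2a in 23.6% and 7.14%. These cells carried Lef1, a factor of naive T cells, in 92.1% and 92.9%. CD8 T cells without Ccl5, just outside the threshold, had Gzmm in 1.35% of WT and 0.256% of CKO cells, and Lef1 in 96.9% and 91.8%. Other genes placed the WT 1-UMI cells between both kinds. Cxcr3 was found in 9.06% of WT cells outside the threshold, in 27.9% of the 1-UMI cells and in 58.7% of those with 10 or more UMIs. Ly6c2, a glycoprotein of memory-phenotype CD8 T cells, was found in 55.8%, 83.6% and 94.0% of them. In CKO, Ly6c2 was found in 32.8%, 35.7% and 78.0%, so its 14 cells with 1 UMI lay near those outside. Values over all CD8 T cells with Ccl5 therefore mix cells of different kinds.

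Paired values below give WT first and CKO second, and each ratio is that of CKO over WT. Over all CD8 T cells with Ccl5, the summed levels of the markers other than Ccl5 were alike in the libraries, with Gzmm as the exception. Cxcr3 stood at 84.0 CPM in WT against 81.4 CPM in CKO (ratio 0.969, 0.692 to 1.33). Ctla2a stood at 292.8 and 312.7 CPM (ratio 1.07, 0.905 to 1.25) and Samd3 at 48.2 and 48.1 CPM (0.998, 0.637 to 1.5). Gzmm was at 70.3 and 127.7 CPM (1.82, 1.38 to 2.36). Among cells with 10 or more Ccl5 UMIs, the ratio of Gzmm was 1.18 (0.882 to 1.57), but that of Ctla2a was 0.815 (0.685 to 0.965). In these cells Cxcr3 had a ratio of 0.993 (0.681 to 1.42) and Samd3 one of 0.771 (0.471 to 1.21). The split at 10 UMIs was chosen after the data were seen.

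Across the transcriptome, CKO cells were higher for many more genes than they were lower. Among 2572 genes with a mean of at least 50 CPM over the libraries, 82 (3.19%) were at least 2-fold higher in CKO and 6 (0.233%) at least 2-fold lower, together 3.42%. The highest ratios were, in order, those of Lgals3, S100a4, S100a6, Gzma, Gzmb, Gzmk and Ccr2, and those after them included the cell cycle genes Hist1h1b, Mki67, Pclaf and Hist1h2ap. The 6 lower genes were Dapl1, the pseudogene Rpl9-ps6, Tmem108, Il6st, Pik3ip1 and Id3. The median log2 ratio over these genes was 0.14. Trimmed mean (TMM) scaling moved that median by -0.18, and the split then became 53 higher and 17 lower. When the 1 cell with most UMIs of a gene was left out of each library, 54 were higher and 14 lower, so single cells carried a part of the higher side.

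**Figure D2:**
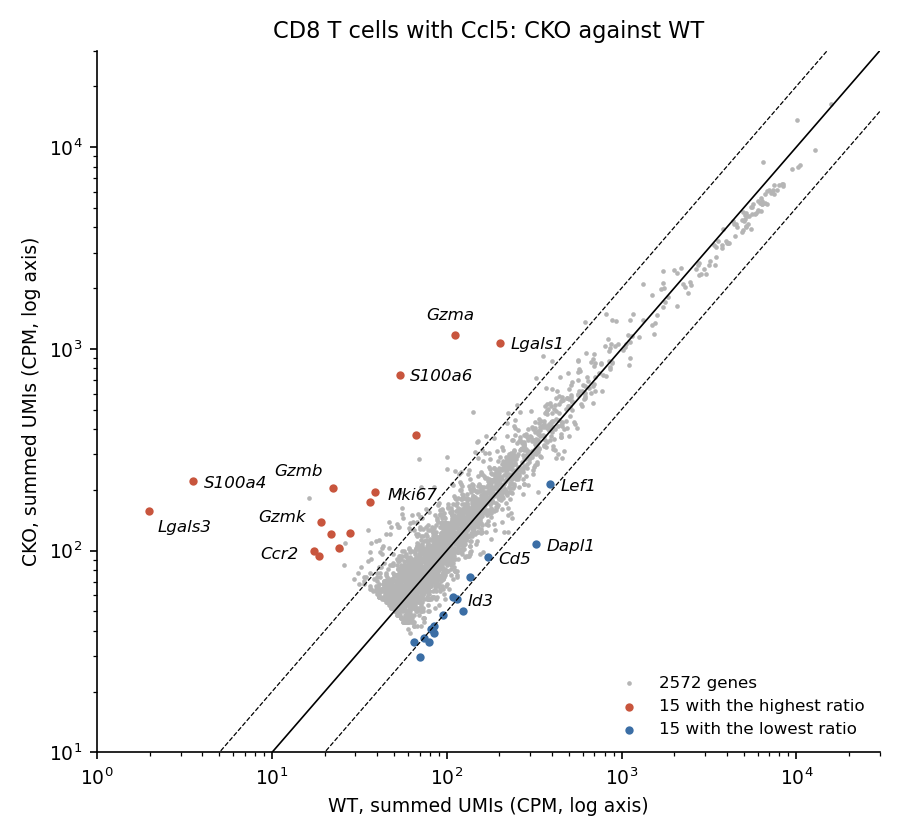
Summed CPM of each gene in WT (x axis) and CKO (y axis) CD8 T cells with Ccl5, both on log axes, for 2572 genes with a mean of at least 50 CPM; the solid line marks equal levels and the dashed lines a 2-fold difference. The 15 genes with the highest ratios (red) and the 15 with the lowest (blue) show S100a4 at 3.54 and 220.2 CPM at the upper left and Dapl1 at 323.1 and 107.3 CPM at the lower right.

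Killing genes were mostly higher in CKO, and granzymes A, B and K, each carried by few cells, were among the highest. Of 15 cytotoxic granule and killing genes with a mean of at least 20 CPM, 6 were at least 2-fold higher and 0 lower, against 4.68% higher and 0.649% lower, together 5.33%, among all 5087 genes at that level. Their median log2 ratio was 0.87, beside 0.14 over all genes. Gzma, a tryptase of cytotoxic granules (chromosome 13, 113093825 to 113100981, build GRCm38), stood at 111.9 CPM in WT against 1173 CPM in CKO (ratio 10.5, 9.31 to 11.8). It was found in 36 of 471 WT cells and 13 of 58 CKO cells, and the 5 CKO cells with most of it held 86.0% of its CKO UMIs. Gzmb, the granzyme that cleaves caspases in target cells, stood at 22.3 and 203.5 CPM (ratio 9.11, 6.89 to 12.1), in 13 cells of each library. Gzmk, a granzyme typical of early effector memory cells and a neighbour of Gzma on chromosome 13, stood at 19.0 and 138.8 CPM (7.30, 5.28 to 10.1), in 26 WT and 16 CKO cells. A granzyme A, B or K UMI was thus present in 55 WT cells (11.7%) and 23 CKO cells (39.7%).

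The other list members at least 2-fold higher were Fasl, Ifng and Serpinb6b. Fasl, the ligand that triggers the death receptor Fas, was at 4.42 CPM in WT against 77.7 CPM in CKO (17.6, 10.1 to 31.6), in 17 and 22 cells. Ifng, which encodes interferon-γ, was at 17.7 and 61.1 CPM (3.45, 2.23 to 5.24). Serpinb6b, a serine protease inhibitor, was at 31.0 and 77.7 CPM (2.51, 1.73 to 3.57). Prf1, the pore-forming perforin, was at 66.6 and 70.3 CPM (1.06, 0.733 to 1.48), and so granzymes A, B and K stood apart between the libraries where perforin did not. Among cells with 10 or more Ccl5 UMIs the ratios of Gzma, Gzmb, Gzmk and Fasl were 5.54, 4.49, 3.64 and 9.22. Gzma was also read in B cells, at 2.18 CPM in WT against 39.0 CPM in CKO, in 0.486% and 0.967% of them, and in CD8 T cells without Ccl5, at 7.34 and 11.7 CPM. These levels lay below that in CD8 T cells with Ccl5 of the same library. Most Gzma UMIs in CKO came from 7 cells with 25 or more of them, of which 6 also held 2 or more UMIs of cycling genes. WT held 3 such cells, 2 of them cycling. Without the cells that held cycling genes, a setting added after the data were seen, the log2 ratio of Gzma was 1.76, against 3.39 with them.

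Genes of the S100 and galectin families held the largest ratios. S100a6, a calcium-binding protein of activated and memory T cells (chromosome 3, 90612882 to 90624181), stood at 54.0 CPM in WT against 740.2 CPM in CKO (13.7, 11.7 to 16.2). It was detected in 69 WT cells (14.6%) and 38 CKO cells (65.5%), so its detection was widespread in CKO and not confined to the granzyme-rich cells. Its UMIs were less evenly spread, as the 5 leading cells held 39.8% of them in WT and 49.5% in CKO. Cells with a granzyme A, B or K UMI held 100 of 244 S100a6 UMIs in WT and 282 of 400 in CKO. S100a4, its neighbour (chromosome 3, 90603771 to 90606045), stood at 3.54 and 220.2 CPM (62.2, 36.8 to 112), in 8 and 11 cells. Lgals3, which encodes the glycan-binding galectin-3, stood at 1.99 and 157.3 CPM (79.0, 39.7 to 179), in 5 and 9 cells. The large ratios of these last genes thus rested on few cells, and the 5 leading CKO cells held 85.7% of the S100a4 and 90.6% of the Lgals3 UMIs. Lgals1, which encodes galectin-1, was at 201.7 and 1068 CPM (5.29, 4.76 to 5.88), in 253 and 37 cells. The 5 leading cells held 16.7% of the Lgals1 UMIs in WT and 75.4% in CKO, and the median was 1 UMI in each library. Anxa2, a membrane-binding annexin, was at 21.7 and 120.3 CPM (5.55, 3.99 to 7.67).

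Of 26 S100 and effector cytoskeleton genes at 20 CPM or more, 11 were at least 2-fold higher in CKO and 0 lower, with a median log2 ratio of 0.75. Without the cells with cycling genes the median was 0.28, yet S100a6 kept a log2 ratio of 3.16. Among cells with 10 or more Ccl5 UMIs S100a6 was found in 45 of 167 in WT and 35 of 41 in CKO. Among those with exactly 1 it was found in 6 of 140 and 1 of 14. The wide gap in S100a6 was thus seen among cells with much Ccl5.

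The chemokine receptors Ccr2 and Cxcr6 were higher in CKO, although Cxcr3 (above) was not. Ccr2, a receptor for monocyte-attracting chemokines, stood at 17.5 CPM in WT against 99.9 CPM in CKO (5.72, 3.97 to 8.19). Cxcr6, which guides T cells into tissues such as liver, stood at 55.7 and 151.7 CPM (2.72, 2.10 to 3.51), in 160 and 34 cells. Ccr7, which brings T cells into lymph nodes, stood at 136.7 and 96.2 CPM (0.704, 0.520 to 0.935). Among cells with 10 or more Ccl5 UMIs the ratio of Ccr7 was 0.810 (0.540 to 1.18). Of 10 chemokine and receptor genes at 20 CPM or more other than Ccl5, 5 were at least 2-fold higher in CKO and 0 lower, with a median log2 ratio of 0.75. Cxcl10, an interferon-induced chemokine, was at 18.6 and 94.4 CPM (5.08, 3.51 to 7.28), and 1 CKO cell held 56.9% of its UMIs.

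Of 16 homing, egress and adhesion genes at 20 CPM or more, 2 were at least 2-fold higher in CKO and 0 lower, with a median log2 ratio of 0.03, below that of all genes. Those 2 were Itga4 and Itgb1, the chains of the integrin VLA-4 that binds activated vessel walls. Itga4 stood at 150.6 and 347.9 CPM and Itgb1 at 149.3 and 344.2 CPM, and the ratio of each was 2.31 (1.95 to 2.72).

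Natural killer receptors differed by family. Klrg1, an inhibitory receptor of effector cells, was at 4.42 CPM in WT against 51.8 CPM in CKO (11.7, 6.37 to 21.9), in 8 cells of each library. Klrc2, the activating NKG2C chain, was at 13.1 and 74.0 CPM (5.67, 3.70 to 8.62), whereas Klrd1, the CD94 partner of the NKG2 chains, was at 224.3 and 149.9 CPM (0.668, 0.526 to 0.839). Klrk1, which encodes the activating receptor NKG2D and is far higher in NK cells of both libraries, was at 26.1 and 109.2 CPM (4.18, 3.01 to 5.77). The Ly49 receptors, inhibitory and activating receptors for class I molecules encoded by Klra genes, went the other way. Summed over 11 Klra genes, they stood at 69.0 CPM in WT (61.6 to 77.1) and 9.25 CPM in CKO (3.00 to 21.6), a ratio of 0.134 (0.0432 to 0.316). They were found in 73 WT cells (15.5%) and 2 CKO cells (3.45%), and among cells with 10 or more Ccl5 UMIs in 25.7% and 4.88%. The Klra genes are near-identical in parts, so the sum is given and not the single genes. Of the 8 genes of the wider list at 20 CPM or more, 4 were at least 2-fold higher and 0 lower (median log2 1.48, and 0.33 over those at 50 CPM or more).

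Surface genes of virtual memory cells were mostly less than 2-fold apart, with differences in both directions. Of 19 such genes at 20 CPM or more, 3 were at least 2-fold higher in CKO and 0 lower, with a median log2 ratio of 0.01. The counting interval of the ratio lay above 1 for 7 of them and below 1 for 3. Ly6c2, a glycoprotein high on memory-phenotype CD8 T cells, stood at 1837 CPM in WT against 1806 CPM in CKO (0.983, 0.919 to 1.05). Il2rb, the shared interleukin-2 and interleukin-15 receptor chain, stood at 197.9 and 257.2 CPM (1.3, 1.08 to 1.56). Ly6a, the interferon-inducible Sca-1, stood at 140.7 and 484.8 CPM (3.45, 2.97 to 3.99), in 190 WT cells (40.3%) and 39 CKO cells (67.2%). Cd5, a regulator of receptor signalling whose level follows self-recognition, stood at 172.9 and 92.5 CPM (0.535, 0.394 to 0.712). Under TMM scaling the list's median log2 ratio turned to -0.17, a shift like that of all genes, so no direction is given for it.

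**Figure D3:**
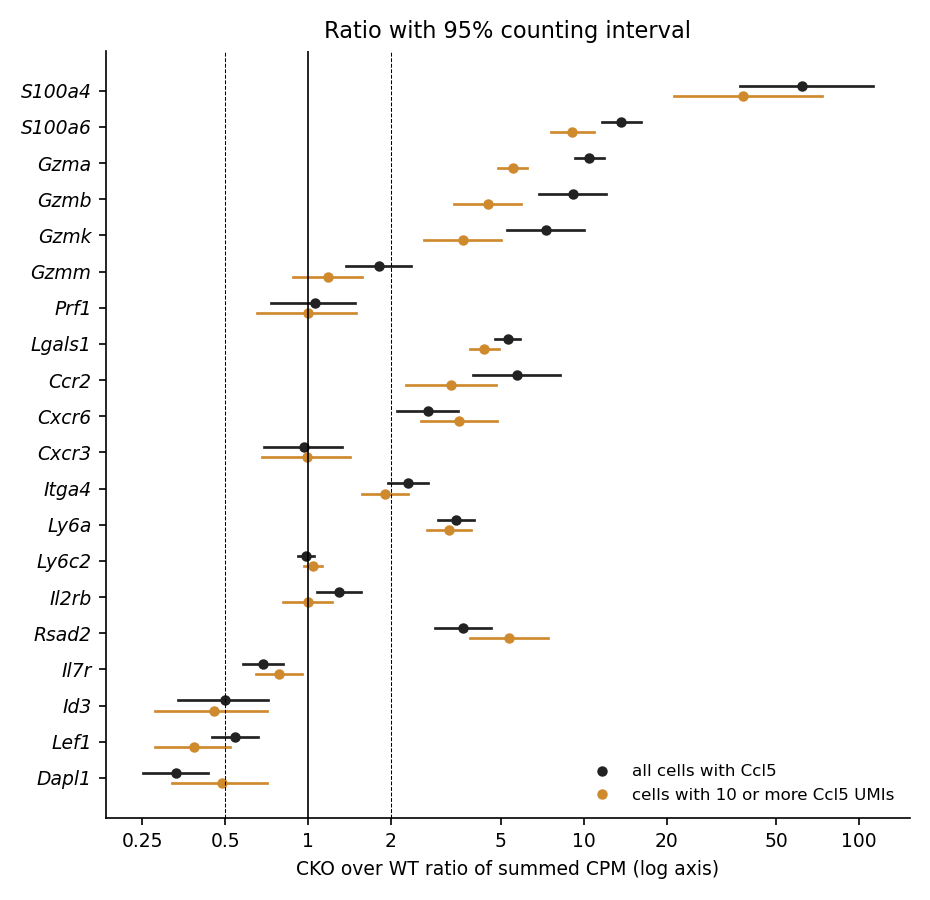
CKO over WT ratio of summed CPM (x axis, log scale) with its exact 95% counting interval for 20 genes, over all CD8 T cells with Ccl5 (black) and over those with 10 or more Ccl5 UMIs (orange); the solid line marks equal levels and the dashed lines a 2-fold difference. Granzyme ratios lay closer to 1 in the cells with more Ccl5, whereas those of Cxcr6 (3.52) and Rsad2 (5.36) lay further from it.

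Transcription factors of memory and effector cells showed small differences with few exceptions. Of 9 at 20 CPM or more, 2 were at least 2-fold higher in CKO and 0 lower, with a median log2 ratio of 0.35. These were Tox, a factor of persistent stimulation and of thymic selection, at 36.7 and 90.7 CPM (2.47, 1.76 to 3.42), and Ikzf2, which encodes Helios, at 47.6 and 120.3 CPM (2.53, 1.89 to 3.35). Eomes, a T-box factor of memory CD8 T cells, stood at 97.1 and 124.0 CPM (1.28, 0.972 to 1.65), and Tbx21, which encodes T-bet, at 23.2 and 18.5 CPM (0.797, 0.371 to 1.52). Id2, an inhibitor of E proteins that favours effector cells, was at 111.0 and 183.2 CPM (1.65, 1.32 to 2.05). Its counterpart Id3, which favours memory precursors, was at 114.8 and 57.4 CPM (0.50, 0.336 to 0.718). Without cells that held a γ constant UMI, the log2 ratio of Ikzf2 was 0.29 against 1.34 with them.

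Naive T cell genes leaned lower in CKO. Of 24 at 20 CPM or more, 5 were at least 2-fold lower and 0 higher, with a median log2 ratio of -0.53. Dapl1, a gene of quiescent T cells, was at 323.1 CPM in WT against 107.3 CPM in CKO (0.332, 0.251 to 0.432), in 244 and 13 cells. Lef1 was at 391.0 and 212.8 CPM (0.544, 0.447 to 0.657), and its ratio was 0.385 among cells with 10 or more Ccl5 UMIs. Tcf7, the partner factor TCF-1, was at 275.6 and 214.7 CPM (0.779, 0.638 to 0.943). Il7r, the interleukin-7 receptor chain that sustains resting T cells, was at 419.3 and 288.7 CPM (0.688, 0.581 to 0.811). Among cytokine receptors, Il6st and Il6ra, the chains of the interleukin-6 receptor, were also lower in CKO, with Il6st at 79.6 and 35.2 CPM and Il6ra at 80.7 and 40.7 CPM. Il10ra, the interleukin-10 receptor chain, was at 8.40 and 40.7 CPM (4.84, 2.73 to 8.40).

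Interferon-stimulated genes were mostly higher in CKO. Type I interferon acts through a complex that holds IRF9 and binds interferon-stimulated response elements in promoters. Of 57 such genes at 20 CPM or more, 17 were at least 2-fold higher in CKO and 0 lower, with a median log2 ratio of 0.78 that stayed between 0.60 and 0.97 over the settings tried. The single gene Rsad2, which encodes the antiviral enzyme viperin, stood at 53.7 CPM in WT against 196.1 CPM in CKO (3.65, 2.88 to 4.60), in 84 and 24 cells. Isg15, a ubiquitin-like modifier, stood at 323.6 and 718.0 CPM (2.22, 1.98 to 2.48), in 240 and 42 cells. Irf9, in contrast, stood at 77.8 and 53.7 CPM (0.689, 0.455 to 1.01). Of 17 interferon-induced GTPases, 5 were at least 2-fold higher and 0 lower (median log2 0.61). Class I presentation genes were higher by smaller steps, with 0 of 18 past 2-fold and a median log2 ratio of 0.36. H2-Q6, for example, was at 123.0 and 209.1 CPM (1.70, 1.38 to 2.09). After thinning to 2000 UMIs, Isg15 was found in 28.3% of WT and 50.9% of CKO cells.

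The response element was common in promoter windows of these genes. Its core, GAAA followed by any 2 bases and GAAA, on either strand, was found in 29 of 58 RefSeq promoter windows of the interferon-stimulated genes, which covered 46 of the 57 genes, against 3.44% of all 32851 windows. Each window runs from 250 bases before to 50 bases after a gene's start. The element was as common among members at least 2-fold higher (8 of 17 windows) as among the others (21 of 41), so it did not separate them. Windows of the genes Rsad2 and Isg15 (GRCm38.p6, gene strand, 5′ to 3′, matches in capitals) are shown because both genes are described above. Isg15 was picked after its values were seen. That of Rsad2, at chr12:26456403-26456702 on the minus strand, has 1 match, on the strand opposite to the gene. That of Isg15, at chr4:156200769-156201068 on the minus strand, has 3 overlapping matches in 1 run.
Rsad2: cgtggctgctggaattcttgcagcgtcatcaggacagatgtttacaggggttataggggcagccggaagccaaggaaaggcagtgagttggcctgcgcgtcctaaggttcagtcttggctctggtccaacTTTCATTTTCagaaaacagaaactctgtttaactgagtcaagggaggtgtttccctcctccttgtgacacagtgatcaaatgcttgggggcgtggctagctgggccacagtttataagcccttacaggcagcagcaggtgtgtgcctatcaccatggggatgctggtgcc
Isg15: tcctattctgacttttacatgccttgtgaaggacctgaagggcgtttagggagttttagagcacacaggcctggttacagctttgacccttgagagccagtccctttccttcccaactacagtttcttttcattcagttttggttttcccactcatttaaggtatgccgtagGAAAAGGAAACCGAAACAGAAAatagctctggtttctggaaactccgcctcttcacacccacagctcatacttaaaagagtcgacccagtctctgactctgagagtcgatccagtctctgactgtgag

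Cell cycle genes were higher in CKO through a small set of cells. Of 23 replication genes at 20 CPM or more, 17 were at least 2-fold higher and 0 lower (median log2 1.29), and of 16 G2 and mitosis genes 10 were (median log2 1.32). Mki67, a protein of dividing cells, stood at 38.9 CPM in WT against 196.1 CPM in CKO (5.04, 3.92 to 6.45), in 15 and 11 cells. Pclaf, a partner of the replication clamp PCNA, stood at 36.3 and 173.9 CPM (4.80, 3.68 to 6.22), in 17 and 8 cells. Cells with 2 or more UMIs summed over Mki67, Top2a, Birc5, Cdk1, Ccna2, Pclaf and Rrm2 were 26 in WT (5.52%, 3.64 to 7.98%) and 12 in CKO (20.7%, 11.2 to 33.4%). When those cells were left out, the medians were 0.23 and -0.027. When cells with a γ constant UMI were left out, they were -0.030 and -0.20, and Mki67 and Pclaf turned to log2 ratios of -1.26 and -1.83. Of the 11 CKO cells with a γ constant UMI, 7 held Mki67, so these transcripts met in the same few cells. WT held 9 cells with a γ constant UMI, of which 2 held Mki67.

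Transcripts of replication protein A itself were low in both libraries. Rpa1 was at 35.4 CPM in WT (30.1 to 41.3) and 42.6 CPM in CKO (27.0 to 63.9), in 137 of 471 and 15 of 58 cells, a ratio of 1.20 (0.741 to 1.87). A library of 3′ ends can still count transcripts that lack an internal exon, and the deleted exons are not given in the sources used here, so this does not check the knockout. Rpa2, the middle subunit, was at 29.9 and 64.8 CPM (2.17, 1.45 to 3.17), and Rpa3, the smallest, at 35.4 and 49.96 CPM (1.41, 0.902 to 2.13).

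**Figure D4:**
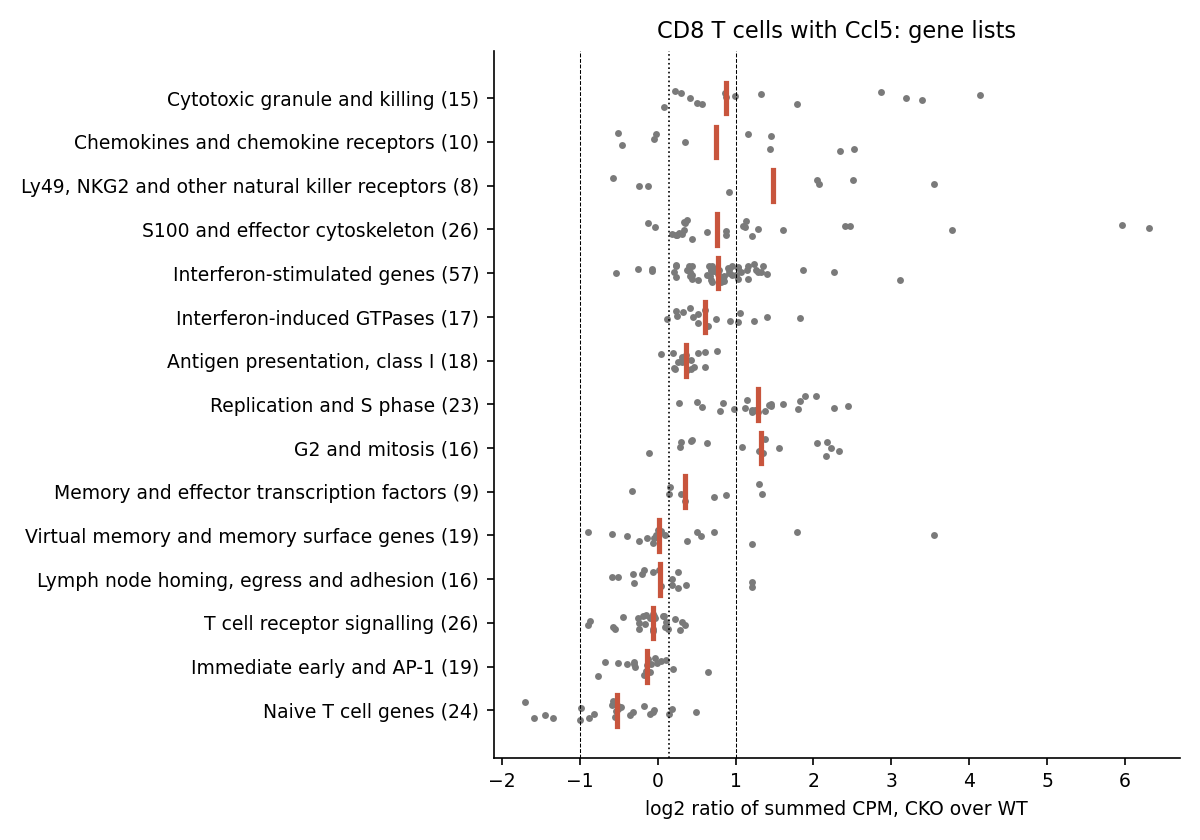
Each point is the log2 CKO over WT ratio (x axis) of 1 gene with a mean of at least 20 CPM in CD8 T cells with Ccl5, in rows by gene list with the number of genes in brackets; red bars mark the list's median, the dotted line the median of all 5087 genes and the dashed lines a 2-fold difference. In the 15 lists drawn, which leave out markers of other cell types among others, medians ran from -0.53 for naive T cell genes to 1.48 for natural killer receptors. The latter median covers 8 of 24 list genes, depends on the CPM floor, and stands beside list sums of 889.3 CPM in WT and 958.5 CPM in CKO. The interferon-stimulated genes (0.78) lay mostly to the right of 0.

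Markers of other cell types were measured in the same cells. Trac, the α chain constant gene, was found in 97.7% of WT and 91.4% of CKO cells, and Trbc2 in 99.4% and 100%. In γδ T cells with Ccl5, gated by Trdc, Trac was found in 40.0% and 46.2%. The γ constant genes Tcrg-C1, Tcrg-C2 and Tcrg-C4 gave a UMI in 9 WT cells (1.91%) and 11 CKO cells (19.0%, 9.87 to 31.4%), and with Trdc at 0 by the rule they summed to 4.87 and 62.9 CPM. All 9 of the WT cells and 9 of the 11 CKO cells also held Trac. The 11 CKO cells held 447 of the 634 Gzma UMIs of CKO, 67 of 110 of Gzmb, 168 of 400 of S100a6, 78 of 119 of S100a4 and 101 of 106 of Mki67. The 9 WT cells held 280 of 506, 14 of 101, 3 of 244, 0 of 16 and 41 of 176 in the same order. Beyond the settings tried, the part of these cells in the other results was not tested. Zbtb16, the factor of innate-like T cells, was found in 3 WT cells and in 0 of 58 CKO cells, which, at a limit of 3 cells, allows a share of cells with a UMI of up to 5.17%. Markers of NK cells summed to 191.1 CPM in WT against 1245 CPM in CKO, of which Gzma alone gave 111.9 and 1173 CPM, and 4 of the 10 markers, Ncr1 among them, were at 0 in CKO. Tyrobp, an adaptor of NK receptors, was at 6.19 and 7.40 CPM. Myeloid and dendritic cell markers summed to 619.7 and 928.9 CPM, with 6 of 15 at 0 in CKO. Of the 4 myeloid and dendritic markers at 20 CPM or more, 2 were at least 2-fold higher and 0 lower (median log2 1.07). B cell markers summed to 336.2 and 534.8 CPM. Of the 6 at 20 CPM or more, 4 were at least 2-fold higher and 0 lower, and their median log2 ratio of 1.89 lay above those of the gene lists drawn in the plot of lists. In CKO 1 cell held 64.3% of the Cd74 UMIs. Without cells that held 3 or more UMIs of B cell and class II genes (8 in WT, 4 in CKO), 83 genes were past 2-fold against 88. Shares, list medians and single genes were also recomputed without these cells, and the G2 and mitosis median was then lower, as given with the settings below. Beyond the settings tried, the part of these markers in the other results was not tested.

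Several gene groups lay near the level of all genes. Of 26 T cell receptor signalling genes at 20 CPM or more, 0 were past 2-fold in either direction (median log2 -0.07). The same count held for 19 immediate early genes (-0.14) and 13 glycolysis genes (0.20). Among 12 p53 targets and damage genes 1 was at least 2-fold lower, Bbc3, which encodes the death-promoting PUMA, at 33.2 and 11.1 CPM (0.335, 0.121 to 0.746). Of 14 BCL2 family and survival genes 1 was higher and 1 lower, the latter again Bbc3. Glucocorticoid-responsive genes, in contrast, had a median log2 ratio of -0.46, below that of all genes. Of 9 of them 1 was at least 2-fold higher, Fkbp5 at 17.5 and 35.2 CPM, and 1 lower, Ddit4 at 33.8 and 11.1 CPM. Their medians were -0.72 in CD8 T cells without Ccl5 and -0.57 in γδ T cells with Ccl5.

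CD8 T cells without Ccl5 (2450 in WT, 390 in CKO) and γδ T cells with Ccl5 (50 and 290) were set beside these cells. Of genes with a mean of at least 50 CPM, 4 of 2614 were at least 2-fold higher and 5 lower in CD8 T cells without Ccl5, and 46 and 21 of 2748 in γδ T cells with Ccl5. S100a6 was at 5.49 and 7.04 CPM (1.28, 0.730 to 2.14) in CD8 T cells without Ccl5, and at 149.3 and 690.7 CPM (4.63, 3.48 to 6.28) in γδ T cells with Ccl5. The S100a6 ratio of 13.7 in CD8 T cells with Ccl5 thus lay outside both intervals. Interferon-stimulated genes had a median log2 ratio of 0.45 in CD8 T cells without Ccl5 and 0.61 in γδ T cells with Ccl5, so they were higher in CKO in all of them. Killing genes had medians of -0.34 and 0.48, and naive T cell genes of -0.02 and -0.38. In CD8 T cells without Ccl5, 1 of 25 naive genes was at least 2-fold higher and 3 lower, and Dapl1 was at 514.5 and 241.0 CPM (0.468, 0.431 to 0.508). Lef1 was at 655.8 and 621.2 CPM in CD8 T cells without Ccl5 (0.947, 0.898 to 0.998). Il7r was lower in CKO there too, at 341.2 and 149.8 CPM (0.439, 0.395 to 0.487), against 0.688 in CD8 T cells with Ccl5. These differences between populations come from 1 pair of libraries and were not tested.

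**Figure D5:**
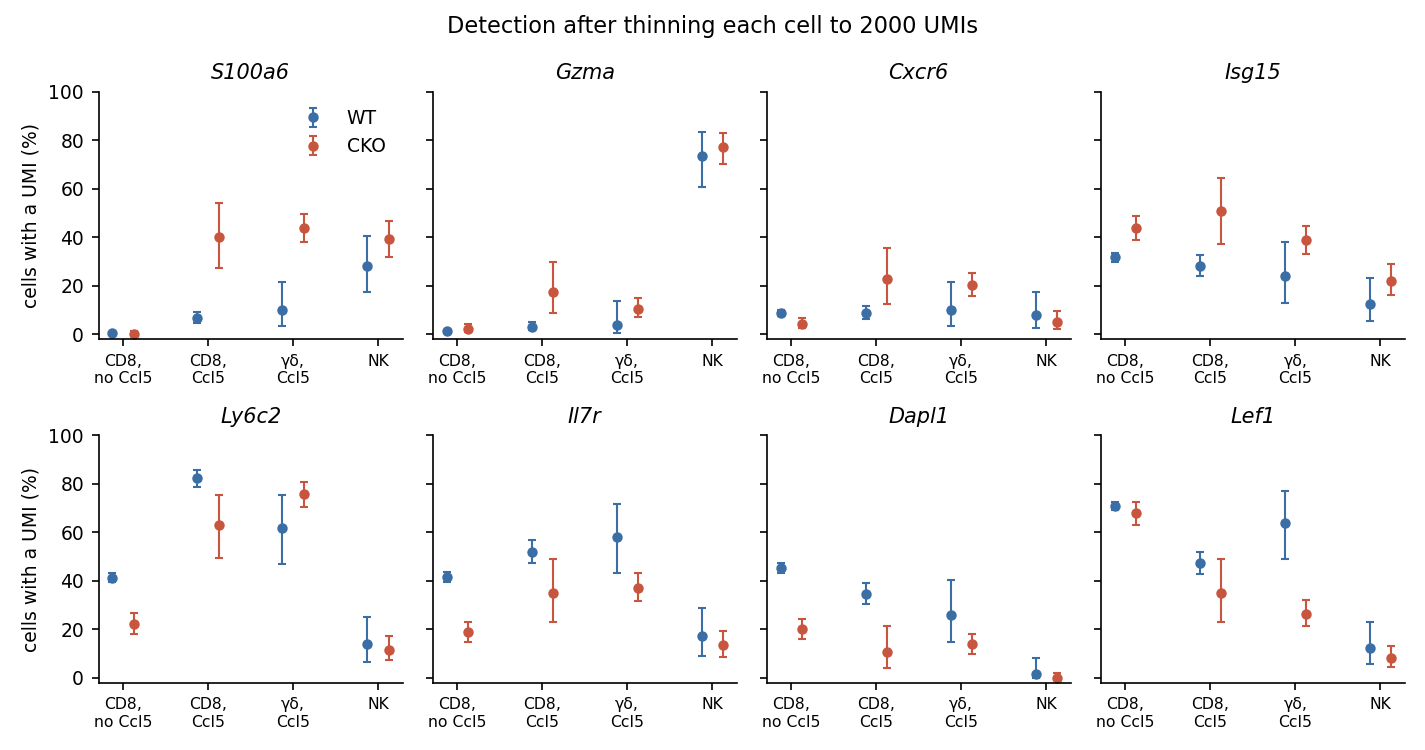
Share of cells with a UMI (y axis, percent, with exact 95% binomial intervals) for 8 genes after each cell was thinned to 2000 UMIs, in 4 populations (x axis), with WT in blue and CKO in red. S100a6 was found in 6.6% of WT and 40.4% of CKO CD8 T cells with Ccl5 and in under 1% of those without Ccl5. In γδ T cells with Ccl5 it was found in 10.0% and 43.8%. Isg15 was more often found in CKO in each population shown.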

How the data were processed

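Cells of 2 droplet libraries of 3′ transcript ends, WT and CKO, were compared. The deposited values were raw UMI counts per gene and cell, made with Cell Ranger 6.0.2 per the file headers; the submitters' processing notes name Cell Ranger 5.0.0, Seurat 4.0.3 and mm10. The cells and gene lists were chosen with earlier results of these data known. UMIs were summed per gene over the chosen cells of each library and divided by their total (Python 3.11.15, SciPy 1.17.1). Levels have exact Poisson intervals, ratios exact conditional binomial intervals and shares Clopper-Pearson intervals, each at 95% and covering no error but that of counting. The computation was tested on simulated data. Named genes were drawn from the 15 highest and 15 lowest ratios among genes at 50 CPM or more, at a ratio whose interval excludes 1, and the 3 highest and 3 lowest of each of 32 lists at 20 CPM or more. They were also drawn from killing genes, transcription factors, memory surface genes, γ constant genes, cell type markers and the RPA subunits. Not every gene that the rule allows is named. From the ranking, but not from lists, were left out genes at least 10 times as high in B, NK or γδ T cells of both libraries. Genes named outside this rule, which are Isg15, Tcf7, Trac and Trbc2, were picked after their values were seen. Thresholds, scaling (edgeR 4.0.16 for TMM factors only), thinning to 2000 UMIs and doublets were varied. No doublet was removed in the values reported; Scrublet scores (Scanpy 1.11.5) marked 22 of 471 WT and 1 of 58 CKO cells. Promoters came from RefSeq (GRCm38.p6) and gene positions from GENCODE M21 (GRCm38). Some genes are not reported here. Other parts of the lymph node libraries were not used here.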

Additional observations from a re-analysis of the deposited data

Results flagged for a closer look

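For a pair of genes the libraries differed in opposite directions in CD8 T cells with and without Ccl5, and neither difference between these populations was tested. The log2 CKO over WT ratio of Id3 was -1.001 in CD8 T cells with Ccl5 (114.8 CPM in WT against 57.4 CPM in CKO) and 0.59 in those without Ccl5 (77.4 against 116.6 CPM). For Cxcr6 it was 1.44 in CD8 T cells with Ccl5 (55.7 against 151.7 CPM) and -0.79 in those without Ccl5 (51.5 against 29.7 CPM).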

How the results depend on the processing

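No paired analysis was possible because each genotype had 1 library and the labels give no replicate numbers. Of the Ccl5-positive shares of the CD8 gate, that of WT was 11.3% at 2 or more UMIs, 5.72% at 10 or more and 10.0% with gates after thinning; that of CKO was 9.82% and 9.15% at 2 and at 10 UMIs, and the other 17 shares moved within their interval. The count of genes past 2-fold, 88 at 50 CPM or more, was 271 at 20 CPM, 40 at 100 CPM, 1822 with no floor, 307 past 1.5-fold, 240 after thinning and 57 without cells that held cycling genes. The split of higher and lower genes was 53 and 17 under TMM and under median of ratios scaling, and 94 and 38 with totals that left out ribosomal and mitochondrial genes. The S100 median of 0.75 was 0.41 without γ constant cells, 0.28 without cycling cells and 0.52 as a mean of per-cell levels. The replication median of 1.29 was -0.030 without γ constant cells and 0.23 without cycling cells. The G2 and mitosis median of 1.32 was -0.20 and -0.027 in the same order, 0.57 without cells with B cell transcripts, 0.57 after thinning and 0.64 at 50 CPM. The natural killer receptor median of 1.48 was 0.78 at 10 Ccl5 UMIs, 0.70 after thinning, 0.58 at 5 CPM and 0.33 at 50 CPM. The transcription factor median of 0.35 was 0.88 as a mean of per-cell levels. Without γ constant cells, Hist1h1b turned to -1.11, Mki67 to -1.26 and Pclaf to -1.83. Of the single genes' values, 590 moved by less than the counting interval and 92 by more, and 189 list medians moved little. Why these values moved was not tested, beyond the fewer cells or genes each setting keeps. The settings at 10 Ccl5 UMIs and without cycling cells, cells without Trac, cells with B cell transcripts or the leading cell were chosen after seeing the data. With 58 CKO cells, a gene under 5.55 CPM there lies below 3 counts.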

Other observations

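V segments of the T cell receptor were read in a minority of the cells, since the library reads 3′ ends. A Trbv segment was found in 138 WT cells (29.3%) and 13 CKO cells (22.4%), spread over 19 segments in WT and 10 in CKO. Trbv13-2, the most frequent in WT, was in 19 cells, and Trbv3, the most frequent in CKO, was in 4. A Trav segment was found in 146 WT and 20 CKO cells, over 50 and 14 segments.

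Words bound by E2F factors, which drive replication genes (TTTCCCGC and TTTGGCGC on either strand), were found in 7 of 24 promoter windows of the replication list, against 1.56% of all windows. All 7 belonged to genes at least 2-fold higher in CKO, which had 20 of the 24 windows.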
